A study of Mus musculus with 6 samples.

Results

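The genes described here encode assembly factors of the large ribosomal subunit, proteins that build the precursor particle (pre-60S) and leave it before it becomes a working subunit. A list of 46 such genes, chosen with earlier results of these data known, was matched by Ensembl identifier to GENCODE M21 symbols. All 46 were found among the 56689 identifiers listed per library. RNA came from mouse embryonic stem cells of strain C57BL/6, which are pluripotent cells taken from the early embryo. There were 3 libraries of genotype Max-/- (Max-KO) and 3 of wild type (WT). The labels give no treatment, no clone and no batch. They do not say whether libraries of 1 genotype were grown apart, and p-values then cover only the spread among libraries, which may be technical. In bulk RNA, fewer cells of a type and less RNA per cell cannot be told apart.

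Ribosomes are made in the nucleolus, where the large subunit rRNA is copied, cut, modified and folded onto ribosomal proteins. RNA helicases, GTPases, AAA ATPases and scaffold proteins join this particle in order and are stripped off again, the last of them in the cytoplasm. Max is the partner with which MYC proteins bind the E-box, the DNA sequence CACGTG, and genes for ribosome assembly are textbook MYC targets. Stem cells that divide fast have large nucleoli and a high demand for ribosomes.

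An E-box was searched for in the RefSeq promoter windows (build GRCm38.p6), each with 250 bases before and 50 bases after a transcription start. The motif reads the same on both strands. Windows were held for 38 of the 46 genes. Of these, 8 (21.1%) contained at least 1 E-box, against 1228 of 10384 tested genes (11.8%). Over all 27025 genes with a window it was 2187 (8.09%), and of all 32851 windows, counted singly, 7.15% held one. The 8 E-boxes are printed because this is the sequence that Max binds with its partners. Each is shown within 30 bases of the strand of its gene, 5′ to 3′, with the E-box in capitals.
Nle1: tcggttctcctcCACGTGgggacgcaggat
Mybbp1a: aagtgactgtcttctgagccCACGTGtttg
Nop2: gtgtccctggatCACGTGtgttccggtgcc
Rpf2: aagtaatcggtaCACGTGcattcgctaagg
Pes1: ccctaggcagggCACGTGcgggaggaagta
Mdn1: caacgtgaattccttcacCACGTGtgtgtc
Tex10: gcgacctgcggtCACGTGagcgcggcgagg
Sdad1: agcggcgtgtccCACGTGccgtttccggtt

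These stretches lie at chr11:82908355-82908384 for Nle1, chr11:72441347-72441376 for Mybbp1a and chr6:125131811-125131840 for Nop2. They lie at chr10:40246988-40247017 for Rpf2, chr11:3963965-3963994 for Pes1 and chr4:32657139-32657168 for Mdn1. The last pair are at chr4:48473449-48473478 for Tex10 and chr5:92309986-92310015 for Sdad1. The first base of the motif stood 60 bases before the start in Nop2, 26 before 1 start of Rpf2 (base 35 from its other start) and 3 before it in Tex10. In Pes1, Sdad1, Nle1, Mdn1 and Mybbp1a it was base 3, 22, 24, 39 and 41 of the transcript. The bases upstream of Nop2 are shown in full, because its E-box lies farthest from a start (chr6:125131633-125131882, plus strand).
Nop2, 250 bases before the start: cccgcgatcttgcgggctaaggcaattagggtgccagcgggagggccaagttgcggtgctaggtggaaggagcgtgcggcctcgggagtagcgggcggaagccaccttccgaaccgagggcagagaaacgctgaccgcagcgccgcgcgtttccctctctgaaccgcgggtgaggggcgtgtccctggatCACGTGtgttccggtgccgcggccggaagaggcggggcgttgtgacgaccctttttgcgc

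Values are FPKM (fragments scaled by transcript length and by the mapped fragments of the library). Summed over all identifiers they came to 645169 to 658361 in Max-KO and 743406 to 774405 in WT. Low values of genes with 1 transcript, multiplied by length, fell near whole multiples of a step, from which 21.2 to 28.7 M fragments per library were estimated. At that depth a 2 kb transcript at 1 FPKM corresponds to some 42.5 to 57.3 fragments, and the lowest value of any assembly factor was 9.22 FPKM. Max was listed at 35.8, 39.6 and 43.4 FPKM in Max-KO and at 41.6, 50.2 and 42.3 FPKM in WT, so its gene level does not check the genotype labels. Defining markers of embryonic stem cells were present, 7 genes summing to 6449 to 6971 FPKM in Max-KO and 4488 to 5080 in WT. Germ cell and meiosis genes differed with the genotype, 8 genes summing to 1017 to 1069 FPKM in Max-KO and 28.1 to 35.1 in WT, none of them at 0 in Max-KO. Summed markers of feeder fibroblasts were 8.73 to 11.1 FPKM in Max-KO and 7.73 to 8.14 in WT (7 genes), of primitive endoderm 3.33 to 6.96 and 0.910 to 1.47 (6 genes), of trophoblast 75.4 to 94.3 and 65.3 to 73.2 (6 genes), and of neural cells 64.2 to 68.4 and 121 to 140 (5 genes). The part of these other programmes in the results below was not tested.

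Of the 46 assembly factors, 39 fell in Max-KO and none was called higher. The calls come from limma fitted on log2(FPKM + 1) across the 14661 genes averaging 1 FPKM or more in either group, at a Benjamini-Hochberg adjusted p under 0.05. All 46 passed that filter in both groups. Over all genes tested 23.2% were called lower and 43.0% higher, or 66.2% in either direction, and among the 7542 genes averaging 10 FPKM or more, a level all 46 exceeded, 30.5% were called lower. At a log2 difference (Max-KO minus WT) of -1 or less, 10 of the 46 were called, against 4.86% of all genes. That count was 17 of the 46 under median-ratio scaling (8.18% of all genes), 4 as TPM (3.36%) and 9 under quantile normalization (8.99%). The same 39 genes had every Max-KO value below every WT value, which held for 25.7% of all genes, while groups free of overlap in either direction made up 72.0%.

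The median log2 difference of the 46 was -0.59, against 0.21 for all genes tested, and all 46 lay below that median of all genes. The whole distribution depends on how libraries are scaled, since the median of all genes was -0.03 with libraries scaled by median ratios, 0.43 as TPM (the same sum in every library) and -0.02 under quantile normalization. Relative to all genes the median of the 46 was -0.80, and -0.53 under quantile normalization, while their own median was -0.38 as TPM. With median ratios 42 of the 46 were called lower, against 34.3% of all genes. As TPM 35 were, against 15.2% of all genes, and under quantile normalization 39, against 33.0%. Together the 46 genes held 2539 ± 58.4 FPKM in Max-KO and 4082 ± 38.2 FPKM in WT (SD, n = 3), or 0.390 ± 0.0107% and 0.540 ± 0.0072% of all summed FPKM. The coefficient of variation of a gene within a group had a median of 4.08% in Max-KO and 5.28% in WT.

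**Figure D1:**
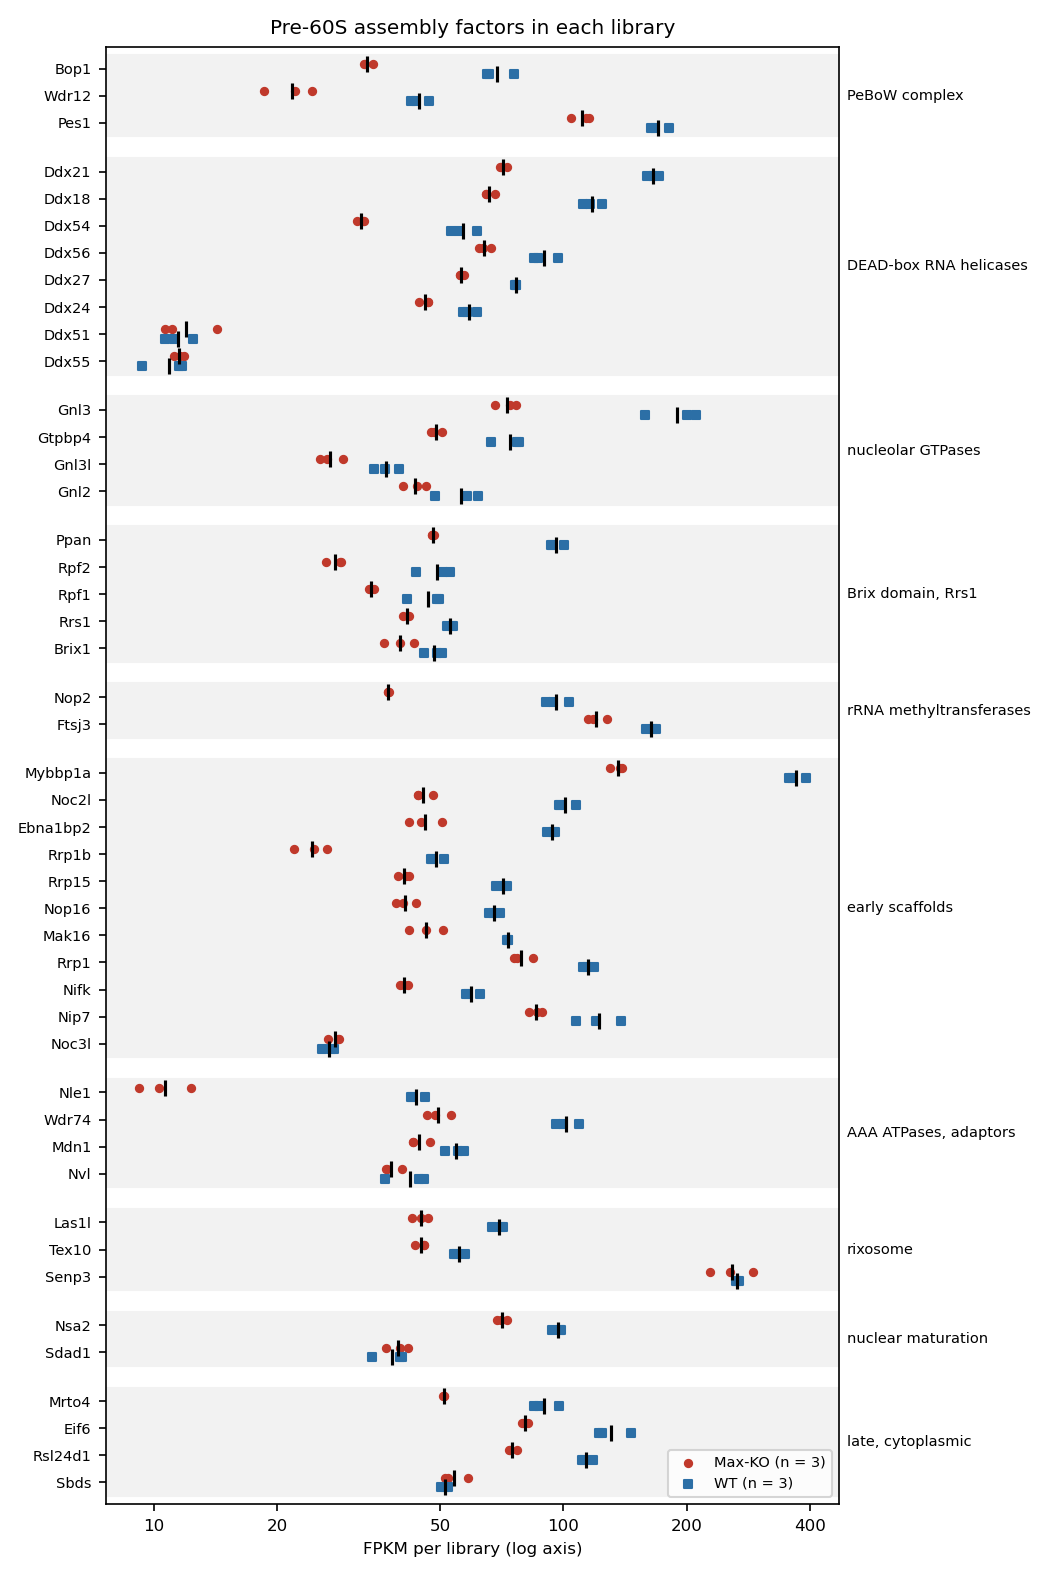
FPKM of the 46 pre-60S assembly factors in each of 3 Max-KO (circles) and 3 WT (squares) libraries, on a log axis, grouped by role, with group means as vertical ticks. For 39 genes the Max-KO points all lie left of the WT points, and for Ddx51, Ddx55, Noc3l, Nvl, Senp3, Sdad1 and Sbds the groups overlap.

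Levels spanned a wide range. Group means ran between 10.6 FPKM (Nle1) and 258 FPKM (Senp3) in Max-KO, and between 10.9 FPKM (Ddx55) and 370 FPKM (Mybbp1a) in WT. The median gene stood at 45.2 FPKM in Max-KO and 70.3 FPKM in WT. Mybbp1a ranked first in WT and second in Max-KO, where Senp3 was first, while Gnl3 ranked 3 in WT and 9 in Max-KO. Across the 46 genes, the log2 difference correlated with the WT level at r = -0.46 (Spearman's rho -0.47). These are genes of the same 6 libraries, and the WT values enter both quantities, so the coefficient is a description only.

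The PeBoW complex, made of Bop1, Pes1 and Wdr12, joins the early particle and is needed to cut the spacers next to the large subunit rRNA. All 3 of its genes fell. Bop1 (ENSMUSG00000022557, chromosome 15, 76452989 to 76477277, minus strand, GRCm38) had 32.8, 34.2 and 32.5 FPKM in Max-KO libraries 1 to 3, against 65.7, 65.0 and 75.6 FPKM in WT libraries 1 to 3. Every Max-KO library was below every WT library (log2 difference -1.03 ± 0.07 SE, limma adjusted p = 3.07e-05). Wdr12 had 22.1, 24.4 and 18.6 FPKM in Max-KO and 42.4, 43.6 and 47.0 FPKM in WT, again without overlap (-1.004 ± 0.10). Pes1, the most abundant of the 3, fell less far. It had 104, 116 and 114 FPKM in Max-KO and 163, 181 and 168 FPKM in WT, a mean of 65.2% of WT (log2 difference -0.61 ± 0.06). Its 95% interval of -0.76 to -0.46 just met that of Wdr12, -1.25 to -0.76, and lay above that of Bop1, -1.20 to -0.86.

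DEAD-box helicases use ATP to pry apart RNA duplexes in the particle, and 6 of 8 fell while Ddx51 and Ddx55 did not pass. Ddx21, which works in rRNA transcription as well as processing, had 72.8, 70.4 and 69.95 FPKM in Max-KO and 171, 166 and 160 FPKM in WT. The groups stood far apart, with libraries of a group close together (log2 difference -1.21 ± 0.05, limma adjusted p = 4.10e-06). Ddx18 and Ddx54 fell to 56.0% and 56.6% of the WT mean. Ddx56, Ddx27 and Ddx24 fell less, to 71.7%, 73.7% and 78.2%.

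The lowest-expressed members of the helicase group showed no call. Ddx55 had 11.9, 11.2 and 11.6 FPKM in Max-KO and 11.6, 11.7 and 9.38 FPKM in WT, with overlap (log2 difference 0.09, 95% interval -0.15 to 0.32, limma adjusted p = 0.466). Ddx51, which in mammals acts on the trailing end of the precursor rRNA, had 11.1, 14.3 and 10.6 FPKM in Max-KO and 10.7, 11.2 and 12.5 FPKM in WT (0.05, 95% interval -0.24 to 0.34). Both the highest and the lowest of these 6 values came from Max-KO libraries, so the groups overlapped. The sign of both differences turned under median-ratio scaling and quantile normalization, as given in the closing values.

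All 4 nucleolar GTPases fell. Gnl3, or nucleostemin, known for its high level in stem cells (ENSMUSG00000042354, chromosome 14, 31012433 to 31019152, minus strand), had 74.2, 76.4 and 67.95 FPKM in Max-KO and 200.1, 211 and 158 FPKM in WT. The WT libraries spread by more than the Max-KO libraries, with WT 3 lowest, and the groups did not overlap (log2 difference -1.36 ± 0.11, limma adjusted p = 5.87e-05). Its paralog Gnl3l fell to 72.9% of the WT mean. Gtpbp4 fell to 65.9%. Gnl2 had 43.9, 46.1 and 40.6 FPKM in Max-KO and 58.0, 61.7 and 48.6 FPKM in WT, the smallest fall of the 4 (-0.35 ± 0.10, limma adjusted p = 0.0147). WT 3 came within a few FPKM of the Max-KO libraries, and the call was lost without Max-KO replicate 3 (-0.31, adjusted p = 0.0526) and as TPM (-0.14, adjusted p = 0.271).

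Within each library the ratio of Gnl3 to Gnl3l was 2.91, 2.64 and 2.57 in Max-KO and 5.03, 6.10 and 4.32 in WT, without overlap. The ratio of Rrp1 to its paralog Rrp1b was 3.08, 3.51 and 3.18 in Max-KO and 2.24, 2.36 and 2.498 in WT, also without overlap and in the other direction. A single scaling factor per library cancels in these ratios, and quantile normalization, which has no such factor, was not applied to them. In log2 they differed by -0.91 for Gnl3 over Gnl3l and by 0.46 for Rrp1 over Rrp1b (exact permutation test, 2-sided, p = 0.1 for both, the smallest p that 3 against 3 libraries can give).

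Proteins with a Brix domain bind rRNA within the particle, and Rpf2 together with Rrs1 brings in the small ribosomal RNA of the large subunit with its proteins. All 5 genes of this group fell, between Ppan at the far end and Brix1 at the near end. Ppan had 47.7, 47.8 and 48.2 FPKM in Max-KO and 93.0, 94.0 and 100.3 FPKM in WT, so the Max-KO level was 50.04% of WT (log2 difference -0.98 ± 0.05, limma adjusted p = 9.29e-06). Rpf2 fell further than its partner Rrs1, to 56.6% against 78.2% of WT, with 95% intervals of -0.995 to -0.60 and -0.46 to -0.23 that do not overlap. Brix1 had 43.2, 39.95 and 36.4 FPKM in Max-KO and 50.5, 49.1 and 45.6 FPKM in WT. The highest Max-KO and the lowest WT library lay close together (-0.28 ± 0.08, limma adjusted p = 0.0164), and the call was lost without WT replicate 1 (-0.24, adjusted p = 0.0577) and after rescaling to TPM.

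Both rRNA methyltransferases fell, to different extents. Nop2, a cytosine methyltransferase (ENSMUSG00000038279, chromosome 6, 125131909 to 125144753, plus strand), had 37.3, 37.5 and 37.3 FPKM in Max-KO and 94.4, 90.7 and 103 FPKM in WT. The 3 Max-KO libraries were nearly equal and well under WT (log2 difference -1.34 ± 0.06, limma adjusted p = 5.80e-06). Ftsj3, a ribose methyltransferase, had 118, 128 and 115 FPKM in Max-KO and 165, 159 and 168 FPKM in WT. By group mean it ranked 3 of the 46 in Max-KO and 6 in WT (-0.44 ± 0.06, limma adjusted p = 4.40e-04).

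Scaffold and binding proteins of the early nucleolar particles were the largest group, and 10 of 11 fell. Mybbp1a, a nucleolar protein that binds MYB (ENSMUSG00000040463, chromosome 11, 72441355 to 72451768, plus strand), had 139, 138 and 130 FPKM in Max-KO and 362, 356 and 391 FPKM in WT. It lost the most FPKM of the 46 genes and stood at 36.7% of WT (log2 difference -1.44 ± 0.06, limma adjusted p = 3.95e-06). Noc2l, a scaffold that also binds p53, fell to 45.0% of WT, Ebna1bp2 to 49.0% and Rrp1b to 49.9%. Rrp15, Nop16, Mak16, Rrp1, Nifk and Nip7 fell to between 57.6% and 70.2%. Nifk is known for binding the proliferation protein Ki-67.

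Noc3l, which in yeast forms a dimer with Noc2, was the exception in this group. It had 28.2, 28.4 and 26.6 FPKM in Max-KO and 27.0, 27.5 and 25.7 FPKM in WT, with overlapping groups (log2 difference 0.05, 95% interval -0.09 to 0.19, limma adjusted p = 0.497). The interval of Noc2l, -1.28 to -0.99, lies wholly under it. The Noc3l difference was -0.20 under median-ratio scaling and 0.26 after rescaling to TPM, and both of these passed (adjusted p = 0.0219 and 0.0126), so its direction depends on the scaling. As TPM the median of all genes was 0.43, above that of Noc3l.

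The AAA ATPases and their WD-repeat adaptors split within each pair. Nle1 docks the giant ATPase Mdn1 onto the particle, and Wdr74 is released from it by the ATPase Nvl. Nle1 (ENSMUSG00000020692, chromosome 11, 82900768 to 82908411, minus strand) had 9.22, 10.3 and 12.3 FPKM in Max-KO and 42.5, 42.8 and 46.01 FPKM in WT. This was the largest fall of the 46, to 24.3% of WT (log2 difference -1.95 ± 0.11, limma adjusted p = 1.02e-05). Mdn1 had 42.9, 47.2 and 42.8 FPKM in Max-KO and 57.3, 55.2 and 51.5 FPKM in WT. It fell to 81.1% of WT (-0.30 ± 0.07, limma adjusted p = 6.24e-03), a call lost after rescaling to TPM. In WT libraries Nle1 and Mdn1 averaged 43.8 and 54.7 FPKM, whereas in Max-KO they averaged 10.6 and 44.3 FPKM.

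For the second pair, Wdr74 fell to 48.6% of WT, at 49.3 ± 3.45 FPKM in Max-KO and 102 ± 6.77 FPKM in WT (SD, n = 3). Nvl had 37.0, 40.3 and 36.9 FPKM in Max-KO and 45.6, 44.5 and 36.7 FPKM in WT. Its groups overlapped through WT 3 alone (log2 difference -0.14, 95% interval -0.36 to 0.07, limma adjusted p = 0.205). Without WT replicate 3 the fall passed (-0.24, adjusted p = 0.0134), and it also passed under median-ratio scaling (-0.39, adjusted p = 4.04e-03). In both pairs the 95% interval of the adaptor lay under that of the ATPase (-2.20 to -1.71 and -0.45 to -0.14 for Nle1 and Mdn1, -1.20 to -0.85 and -0.36 to 0.07 for Wdr74 and Nvl).

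The rixosome cuts the second internal spacer, through the endonuclease Las1l, and carries the SUMO protease Senp3. Las1l had 42.8, 45.0 and 46.8 FPKM in Max-KO and 71.4, 70.5 and 66.9 FPKM in WT, without overlap (log2 difference -0.62 ± 0.06, limma adjusted p = 9.79e-05). Tex10, a scaffold of this complex, fell to 81.1% of WT (-0.30 ± 0.05, limma adjusted p = 2.20e-03) and lost its call after rescaling to TPM. Senp3, the most abundant of the 46 by mean over all libraries, had 255, 291 and 228 FPKM in Max-KO and 269, 265 and 263 FPKM in WT. The Max-KO libraries lay on both sides of the tight WT group (-0.05, 95% interval -0.26 to 0.16, limma adjusted p = 0.641). Its difference passed as a fall under median-ratio scaling (-0.30, adjusted p = 0.0194) and was positive as TPM and after quantile normalization.

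Of the genes for nuclear maturation and export, Nsa2 fell and Sdad1 did not pass. Nsa2 had 69.0, 70.4 and 73.0 FPKM in Max-KO and 98.8, 93.7 and 97.9 FPKM in WT (log2 difference -0.45 ± 0.05, limma adjusted p = 2.44e-04). Sdad1, needed for export of the particle in yeast, had 40.01, 36.8 and 41.9 FPKM in Max-KO and 39.9, 40.3 and 34.1 FPKM in WT. Its groups overlapped (0.06, 95% interval -0.15 to 0.26, limma adjusted p = 0.584). Its promoter window holds an E-box. As TPM Sdad1 was called higher (0.27, adjusted p = 0.0391), below the median of all genes as TPM (0.43). Under median-ratio scaling its sign turned (-0.19).

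Among the factors that act last, Mrto4, Eif6 and Rsl24d1 fell and Sbds did not pass. Mrto4 holds the place of the stalk protein Rplp0. It had 51.0, 51.2 and 50.9 FPKM in Max-KO and 85.0, 87.2 and 97.5 FPKM in WT (log2 difference -0.80 ± 0.06, limma adjusted p = 5.03e-05). Rsl24d1, which holds the place of Rpl24, fell to 66.0% of WT. Eif6 keeps the new large subunit from joining the small one, and Sbds, the gene of Shwachman-Diamond syndrome, takes part in removing Eif6. Eif6 fell to 61.5% of WT, at 80.5 ± 1.23 FPKM in Max-KO and 131 ± 13.4 FPKM in WT (SD, n = 3). Sbds had 58.4, 51.3 and 52.2 FPKM in Max-KO and 52.4, 50.2 and 51.4 FPKM in WT. Only Max-KO 1 stood above the rest, and the groups overlapped (0.07, 95% interval -0.08 to 0.22, limma adjusted p = 0.372). Sbds was called higher as TPM (0.28, adjusted p = 9.41e-03), below the median of all genes as TPM (0.43). It stood at -0.18 under median-ratio scaling.

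**Figure D2:**
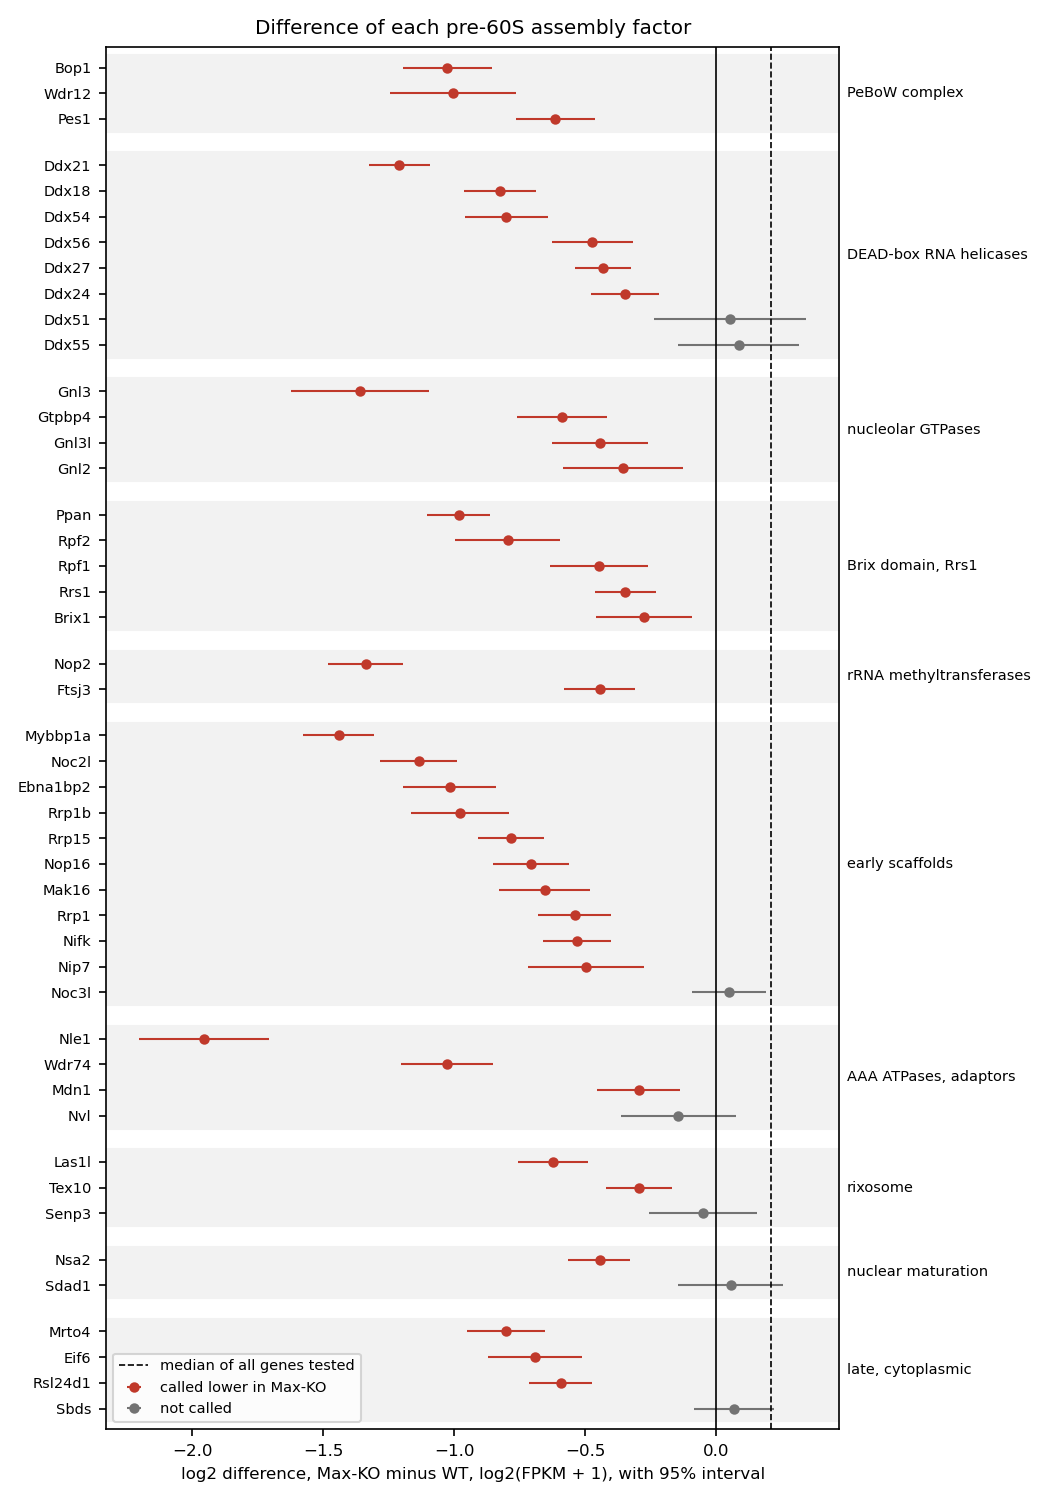
Log2 difference (Max-KO minus WT, log2(FPKM + 1)) of each assembly factor with its 95% interval from limma, grouped by role, with solid and dashed lines at 0 and at the median of all genes tested (0.21). Red points are the 39 genes called lower and grey points the 7 that were not called. Nle1 lies farthest left at -1.95.

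The genes that fell included genes with and without an E-box. With an E-box 7 of 8 were called lower, with a median log2 difference of -0.70 and a range of -1.95 to 0.06. Without one 25 of 30 were called lower, with a median of -0.59 and a range of -1.36 to 0.09. Nle1, Mybbp1a and Nop2, which have one, are 3 of the 4 lowest values among the 38, and Gnl3, which has none in this window, is the other. Mdn1 and Tex10 have one and fell least among the called genes with one. Among all tested genes with a promoter window, 28.4% of those with an E-box and 24.4% of those without were called lower. Median GC content of the windows was 57.0% with and 60.5% without an E-box for the 38 genes. A match in the letters is no evidence of binding, and no match says only that these letters are not in the window. No window was held for Bop1, Eif6, Gnl2, Gnl3l, Mak16, Rpf1, Rrs1 and Sbds.

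Other genes that act on the same particle were described from a list of 32, of which 31 were matched and tested. Of these 21 (67.7%) fell and 3 (9.68%) were called higher, against 23.2% and 43.0% of all genes tested. Their median log2 difference was -0.38. As TPM 13 were called lower and 5 higher, against 2406 and 8407 of all 15778 genes tested as TPM. The lowest 3 were Npm1, Nol9 and Lyar. Npm1, the abundant nucleolar chaperone nucleophosmin, had 2088, 2117 and 2200 FPKM in Max-KO and 5282, 5282 and 4145 FPKM in WT (-1.19 ± 0.10, limma adjusted p = 7.01e-05). Nol9, the kinase that works with Las1l, averaged 24.6 ± 0.615 FPKM in Max-KO and 56.1 ± 1.85 FPKM in WT (SD, n = 3). Its log2 difference was -1.16 ± 0.06, with a 95% interval of -1.29 to -1.03 that lay under that of Las1l, -0.76 to -0.49. Lyar, a nucleolar zinc finger protein, had 53.4, 57.5 and 55.2 FPKM in Max-KO and 122, 126 and 108 FPKM in WT (-1.08 ± 0.07). Pelp1 and Wdr18, also of the rixosome, fell by 0.91 and 0.54 on the log2 scale, and the Sbds partner Efl1 fell by 0.25.

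The 3 genes called higher were Dnajc21, Rbm28 and Rpl7l1. Dnajc21, a co-chaperone of late cytoplasmic maturation, had 135, 138 and 140 FPKM in Max-KO and 113, 112 and 85.5 FPKM in WT (log2 difference 0.42 ± 0.11, limma adjusted p = 0.0112). Rbm28 had 52.4, 51.6 and 50.8 FPKM in Max-KO and 42.5, 40.5 and 39.5 FPKM in WT (0.33 ± 0.05). Rpl7l1 had 125, 126 and 128 FPKM in Max-KO and 104, 103 and 111 FPKM in WT (0.25 ± 0.05). In all 3 the groups stood apart. None of the 3 was called higher under median-ratio scaling, so their rise depends on the scaling.

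Assembly factors of the small subunit, 50 genes, were set beside them. Of these 38 (76.0%) fell and 2 were called higher, against 23.2% and 43.0% of all genes tested. The median log2 difference of the 50 was -0.37. As TPM 25 were called lower and 7 higher, against 2406 and 8407 of all 15778 genes tested as TPM. Rrp9, a protein of the U3 particle, had 33.9, 35.0 and 39.8 FPKM in Max-KO and 95.1, 103 and 115 FPKM in WT (-1.50 ± 0.09). Aatf had 20.04, 19.4 and 19.96 FPKM in Max-KO and 50.3, 53.3 and 51.4 FPKM in WT (-1.34 ± 0.06). Wdr43 had 58.9, 60.3 and 60.2 FPKM in Max-KO and 132, 126 and 111 FPKM in WT (-1.02 ± 0.07). In these 3 genes, the lowest of the list, no library of one group reached the other. Ddx10 had 53.1, 56.4 and 51.7 FPKM in Max-KO and 42.6, 42.7 and 30.1 FPKM in WT (0.49 ± 0.13, limma adjusted p = 0.0151). Utp3 had 72.9, 68.2 and 73.1 FPKM in Max-KO and 65.5, 65.3 and 57.8 FPKM in WT (0.18 ± 0.07, limma adjusted p = 0.0465). Both calls were lost under median-ratio scaling and without Max-KO replicate 2, and that of Utp3 also when any other library was left out, with adjusted p between 0.0561 and 0.122. Esf1 was not called in the main fit (0.669, limma adjusted p = 0.072). It was called higher without WT replicate 2 (0.85, adjusted p = 0.0434) or WT replicate 3 (0.34, adjusted p = 9.38e-03). With all libraries it was also called higher with a replicate block (0.669, adjusted p = 0.0427) and as TPM (0.885, adjusted p = 0.0323). No test between the lists was run, and all were chosen with earlier results of these data known. Their medians of -0.59, -0.38 and -0.37 stand side by side as descriptions.

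**Figure D3:**
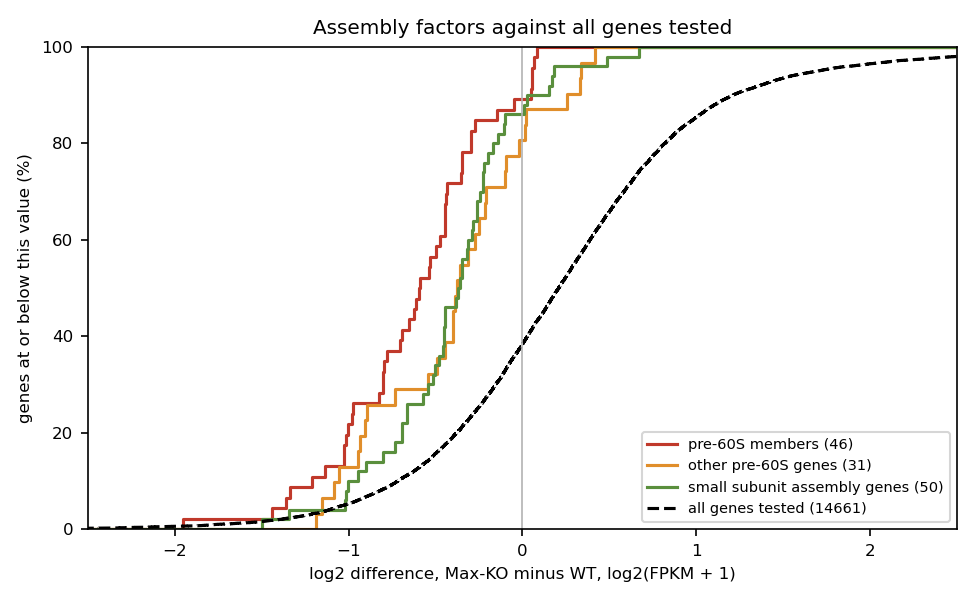
Cumulative share of genes (vertical axis, %) at or below each log2 difference (Max-KO minus WT, horizontal axis) for the 46 pre-60S assembly factors, 31 other pre-60S genes, 50 small subunit assembly genes and, dashed, all 14661 genes tested. The 3 lists lie left of all genes, with medians of -0.59, -0.38 and -0.37 against 0.21.

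Several of these genes share exon bases with a neighbour, and the sources used here do not give the strand setting of the counting. Exons of Mak16 overlap those of Tti2 on the opposite strand over 39.4% of their bases, and Tti2 was listed at 11.0 to 11.5 FPKM in Max-KO and 7.40 to 8.07 FPKM in WT. Exons of Nsa2 overlap those of Fam169a on the opposite strand over 37.2%, and Fam169a was listed at 18.2 to 26.3 FPKM in Max-KO and 30.9 to 37.8 FPKM in WT. The levels of these genes are uncertain to that extent, and less so those of Noc2l, whose neighbour Samd11 was at most 0.09 FPKM in any library. Rsl24d1 shares 13.2% of its exon bases with Gm20509 on the same strand, which no strand setting would separate. Gm20509 was listed at 2.08 to 2.87 FPKM in Max-KO and 0.55 to 1.23 FPKM in WT. Mrto4 has a named pseudogene, Mrto4-ps2, listed at 11.1 to 15.2 FPKM in Max-KO and 6.47 to 13.1 FPKM in WT, with which it could share reads.

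**Figure D4:**
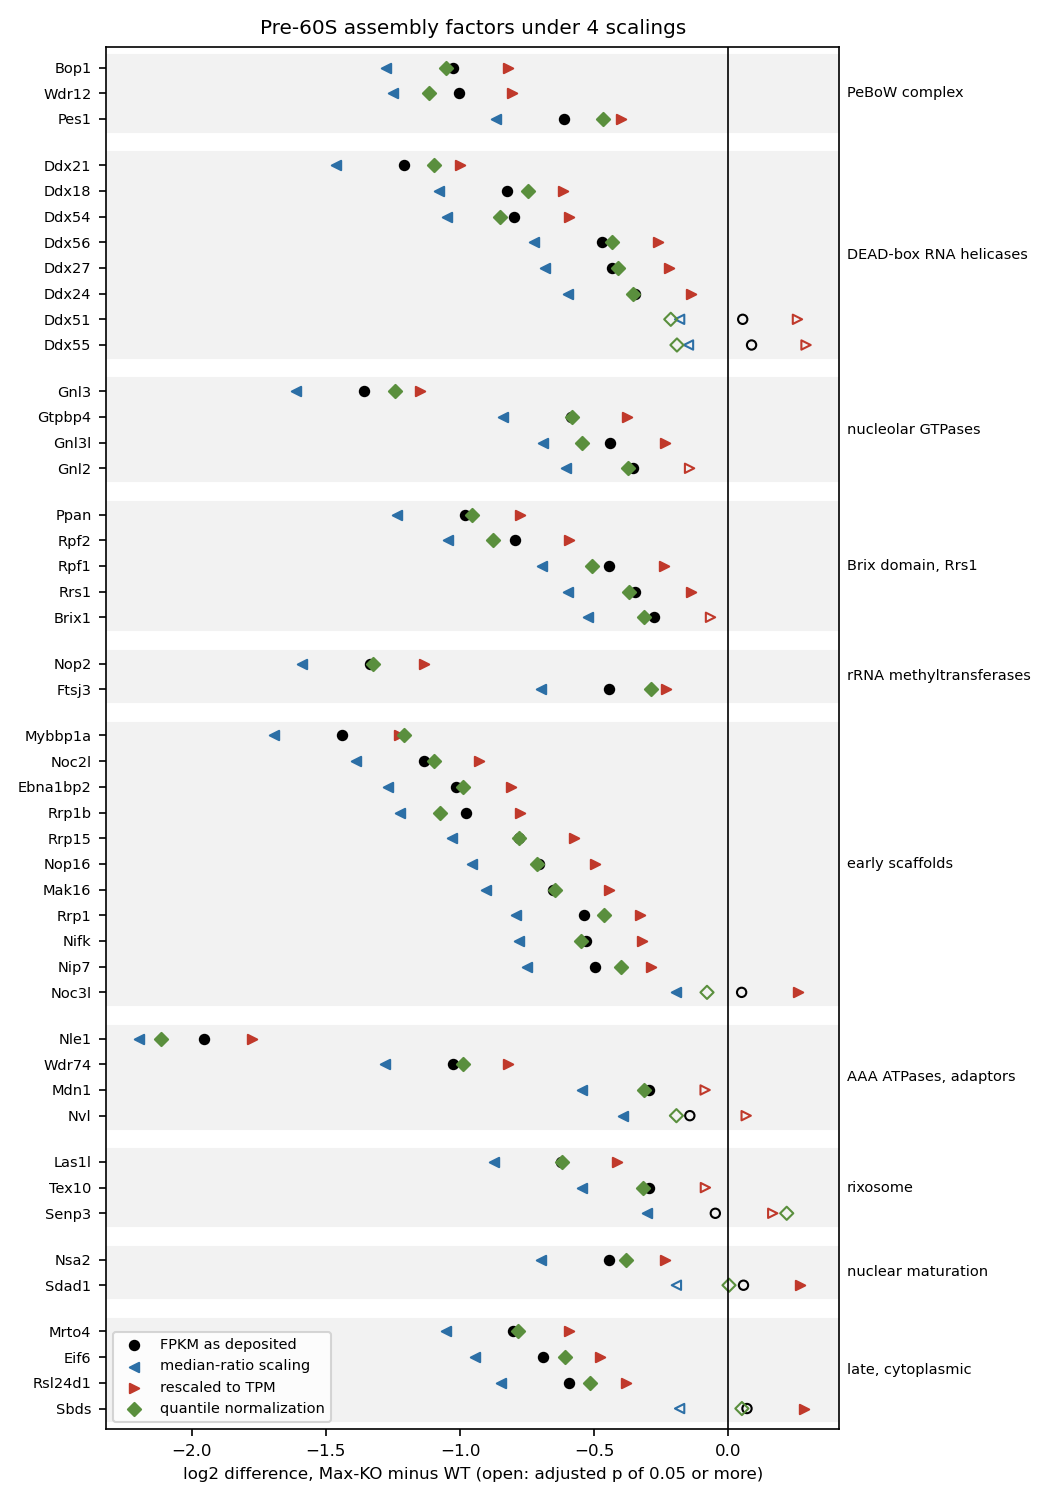
Log2 difference of each assembly factor (Max-KO minus WT) with FPKM as deposited and under median-ratio scaling, rescaling to TPM and quantile normalization, with filled symbols for an adjusted p under 0.05. Median-ratio scaling puts all 46 genes below 0, and rescaling to TPM puts 39 below 0 and calls Noc3l, Sdad1 and Sbds higher. These 3 lie below the median of all genes as TPM, 0.43.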

How the data were processed

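Libraries of 3 Max-KO and 3 WT samples were analysed. The authors deposited 1 FPKM value per gene and library, and the submitters' processing notes name build GRCm38.p6 and, without role or order, DESeq 1.26.0, RSEM, HISAT2 2.1.0 and FastQC. No scaling across libraries is stated. Symbols, coordinates and exons came from GENCODE M21 (GRCm38), which held 55450 of the 56689 identifiers listed, and promoters from RefSeq. Because the files hold FPKM, the count test was replaced by limma 3.58.1 (R 4.3.3; trend, robust, genotype as the only factor) on log2(FPKM + 1), for Ensembl genes averaging 1 FPKM or more in either group, with adjustment over all 14661 genes. Assembled loci without an Ensembl identifier were left out. The fit was tested on simulated data. Tables used Python 3.11.15, pandas 2.3.3, numpy 2.4.6 and scipy 1.17.1. Depth was estimated from the step that put most low values within 0.15 of a whole multiple (81.4% to 86.6%), and the step was chosen on these same values. Members, role groups and lists were chosen with earlier results of these data known. Values in every library are given for the genes with the largest and smallest difference in each role group, those not called lower, and the 3 most abundant, with a few partners added after their values were seen. The comparison with genes of at least 10 FPKM and the counts at -1 or less by setting were also added then. Alternatives were other pseudocounts, filters, scalings, variance settings, a replicate block and leaving out each library.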

Additional observations from a re-analysis of the deposited data

How the results depend on the processing

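Of the 39 genes called lower, 35 were called lower under all 14 alternatives, and Gnl2, Brix1, Mdn1 and Tex10 lost the call under at least 1. Leaving out 1 library at a time gave 38 to 40 genes lower and 0 higher, a median of -0.59 to -0.58 (0.19 to 0.22 for all genes; -0.80 to -0.78 for the 46 less all genes), 18 to 20 other pre-60S genes lower and 3 higher, and 35 to 40 small subunit genes lower and 0 to 2 higher. Among all genes these fits called 5783 to 6102 higher and 3082 to 3318 lower.

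Median-ratio scaling moved the median of the 46 to -0.84 and reversed that of all genes (-0.026). This scaling centres the typical gene near 0, so that sign shows no direction. It called 0 other pre-60S and 0 small subunit genes higher, and 4424 genes higher and 4987 lower in all. Rescaling to TPM gave medians of -0.38 and 0.43, with 3 of the 46 higher (Noc3l, Sdad1 and Sbds), 5 other pre-60S genes higher and 13 lower, and 7 small subunit genes higher and 25 lower. In all, that scaling called 8407 of 15778 genes higher and 2406 lower. Under it 77.7% of calls were higher, against 64.9% as deposited, 46.7% under quantile normalization and 47.0% with median ratios. Quantile normalization gave medians of -0.55 and -0.017 (reversed), a difference of -0.53. It gives every library the same distribution, which also draws the median of all genes toward 0. The 46 less all genes came to -0.84 with a pseudocount of 0.1, -0.65 with no filter and -0.71 with a mean of at least 5 FPKM. The median of all genes was 0.063 with no filter and 0.12 with that stricter filter, which called 3970 genes higher, fewer genes being tested. Without trend and robust moderation, and with no filter, 1 small subunit gene was called higher.

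Signs turned only for genes that were not called. Under median-ratio scaling Ddx51 was -0.18, Ddx55 -0.15, Noc3l -0.20, Sdad1 -0.19 and Sbds -0.18. Under quantile normalization Ddx51 was -0.21, Ddx55 -0.19, Noc3l -0.08 and Senp3 0.22. After rescaling to TPM Nvl was 0.066 and Senp3 0.17. Leaving out 1 library gave Ddx51 -0.069 (without Max-KO replicate 2) to 0.128, Senp3 -0.138 to 0.036 (without Max-KO replicate 3), Ddx55 -0.009 to 0.137 and Sdad1 -0.020 to 0.105 (both lowest without WT replicate 3). The cause of these shifts was not tested.

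Libraries of the same replicate number showed little shared deviation (correlations of -0.002, 0.02 and 0.09, against -0.084 to 0.065 for unlike numbers). This cannot tell whether samples were prepared in pairs, and the labels do not say. With the replicate number as a block 39 of the 46 were again called lower and 0 higher. Of all 14661 genes, that fit called 3282 (22.4%) lower and 6203 higher.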
